A study of Mus musculus with 24 samples.

Results

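Transcripts that mark T cells and cytotoxic lymphocytes were followed through mouse cerebrum and cerebellum after a Polr3a mutation was induced. The members are the 10 genes Cd3d, Cd3e, Cd3g, Cd8a, Cd8b1, Cd4, Gzma, Gzmb, Nkg7 and Cxcr3, chosen by name as markers of these cells, of 54532 genes in the deposited count tables. All 10 were found. The question was whether lymphocyte entry is visible in mutant cerebrum at postnatal day 75 (P75). Because most members were read only a few times per library, raw counts are given for each library and are summed over members, libraries or both.

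Polyadenylated RNA was sequenced from C57BL/6J mice labelled Polr3a mutant or wild type. Polr3a codes for the catalytic core of RNA polymerase III, the enzyme behind transfer RNAs and other short RNAs. All mice, wild types included, received tamoxifen at P28 to induce recombination. The 24 libraries form 6 groups of 4, namely mutant and wild type cerebrum at P75, cerebrum at P42 and cerebellum at P42. All 8 libraries at P75 came from males, and the groups at P42 held both sexes. The labels name neither the mutant allele, the recombinase nor its driver, do not tell whether the recombinase was present in wild types, and do not say that each library came from a separate animal. The p-values therefore measure the spread between libraries. Total counts per library ranged from 13.8 to 23.2 (in units of 1000000), and a floor of 3 counts, the upper limit that a count of 0 allows, corresponds to 0.129 to 0.217 counts per 1000000 (CPM). Such floors, and the intervals given with pooled counts, take in counting error alone, since PCR copies of a molecule could not be told apart.

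T cells recognise antigen through a receptor whose variable chains are held in a complex with the CD3 chains, and they divide into CD8 cells, which read peptides on MHC class I, and CD4 cells, which read MHC class II. Cytotoxic cells kill through granules that carry granzymes, and the chemokine receptor CXCR3 guides activated T cells toward tissue that makes the interferon-induced chemokines CXCL9 and CXCL10. Healthy brain parenchyma holds few such cells. Whole tissue was sequenced, so fewer cells of a type and less RNA per cell cannot be told apart.

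The 9 members other than Cd4 were close to absent from wild type cerebrum and were detected more often in mutant cerebrum at P75. They gave 123 counts over the 4 mutant libraries and 15 over the 4 wild type libraries. Mutant replicates 1 to 4 held 29, 61, 17 and 16 of these counts, and wild type replicates 1 to 4 held 2, 1, 8 and 4. Every mutant library therefore lay above every wild type library. On totals scaled by the trimmed mean of M values (TMM), these sums were 1.61, 3.07, 0.847 and 0.899 CPM in mutants and 0.126, 0.0666, 0.402 and 0.263 CPM in wild types. The pooled ratio was 7.15 (95% exact conditional interval 4.17 to 13.2). Mutant replicate 2 alone gave 49.6% of the mutant counts, and without it the ratio was 4.89 (2.75 to 9.25) on 62 against 15 counts. Without wild type replicate 3 it was 10.7 (5.04 to 27.2). The 10th member, Cd4, went the other way and held most counts of the whole set, so that all 10 members together gave 363 counts in mutants and 444 in wild types. No test was made on these sums.

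**Figure D1:**
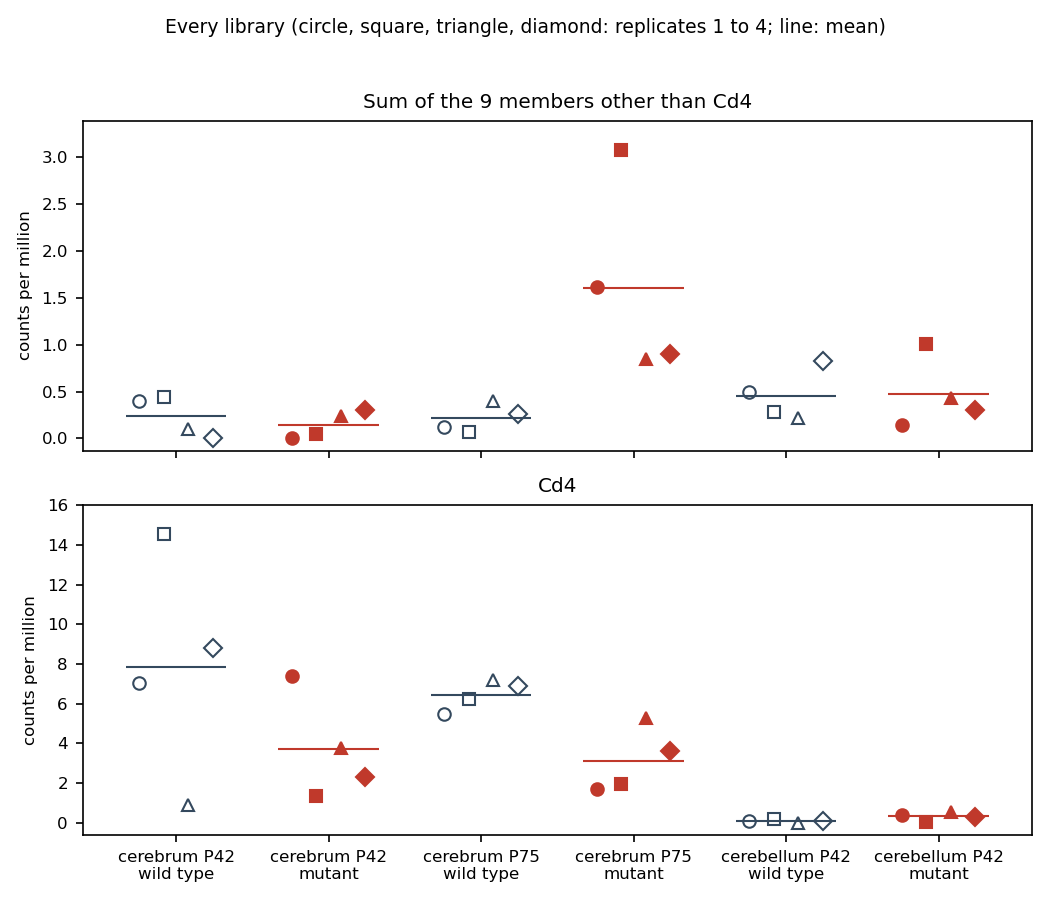
Summed level of the 9 members other than Cd4 (upper panel) and level of Cd4 (lower panel) in each of the 24 libraries, in CPM on TMM-scaled totals, by tissue, age and genotype; each symbol is 1 replicate and each line a group mean. The 4 mutant cerebrum libraries at P75 lie between 0.847 and 3.07 in the upper panel, above the 4 wild types of that age, while Cd4 there is lower in mutants.

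All 9 of these members had a higher pooled level in mutant than in wild type cerebrum at P75. Low counts leaned that way in general. Among the 8961 genes with 4 to 40 counts over the 8 libraries, a range set after seeing the members' counts, 60.5% had a higher pooled level in mutants. Without mutant replicate 2, 8 of the 9 were higher, and Nkg7 was lower with 3 counts against 7. The count filter of edgeR kept Cd4 alone of the 10 members in this comparison, so the 9 others have no value in that fit. Their levels were compared with an exact permutation test over the 8 libraries, two-sided, which cannot give a p below 0.0286. Of these 9 members, 1 passed a threshold of 0.05, against a background of 4.07% of genes with 4 to 40 counts. These p-values are unadjusted and came from 9 tests.

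Promoters are shown here for Cd8a, the member that passed the permutation test, and for Gzmb and Nkg7, which did not pass it and are the granule genes with the most counts. They give the 250 bases before the RefSeq start, 5′ to 3′, from GRCm38.p6 (mm10), at chr6:71373177-71373426 on the plus strand, chr14:56262335-56262584 on the minus strand and chr7:43436888-43437137 on the plus strand. Capitals mark matches to 5 motifs described after them.
Cd8a: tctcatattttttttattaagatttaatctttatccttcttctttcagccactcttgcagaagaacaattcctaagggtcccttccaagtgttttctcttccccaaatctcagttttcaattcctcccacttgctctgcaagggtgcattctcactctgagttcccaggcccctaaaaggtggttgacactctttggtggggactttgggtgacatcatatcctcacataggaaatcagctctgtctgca
Gzmb: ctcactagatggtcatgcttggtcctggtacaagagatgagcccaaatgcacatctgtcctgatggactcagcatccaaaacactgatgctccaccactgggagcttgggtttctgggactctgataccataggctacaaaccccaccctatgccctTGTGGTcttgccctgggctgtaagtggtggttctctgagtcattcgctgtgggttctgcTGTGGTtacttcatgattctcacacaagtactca
Nkg7: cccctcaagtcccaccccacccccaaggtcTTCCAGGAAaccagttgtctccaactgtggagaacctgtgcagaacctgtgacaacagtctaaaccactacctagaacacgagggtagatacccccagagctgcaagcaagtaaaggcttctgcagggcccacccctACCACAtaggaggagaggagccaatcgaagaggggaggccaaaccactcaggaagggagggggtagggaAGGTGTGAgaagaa

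RefSeq promoters were matched for 8 of the 10 members, not for Cd8b1 and Cd4. The window searched ran from 250 bases before to 50 bases after the start, on both strands. The RUNX motif TGTGGT, a core bound by RUNX factors, was found in 4 members (Nkg7, Gzma, Gzmb and Cxcr3) and in 16.8% of all 32851 promoters. The gamma-activated site TTCNNNGAA, the STAT dimer motif, was found in 3 members (Nkg7, Cd3d and Gzmb, in the last at 38 bases after the start and so outside the stretch printed) and in 8.30% of all promoters. The ETS motif ACTTCCT was found in 3 members (Cd3d, Cd3e and Cxcr3) and in 9.35% of all. In Cd3d it overlaps the gamma-activated site. The interferon-stimulated response element (GAAA, any 2 bases, GAAA) was found in Gzma alone and in 3.44% of all promoters, and the T-box motif TCACACCT in Nkg7 alone and in 1.28%. The window of Cd8a held none of the 5. These are matches of letters, described with no test.

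Cd3d, Cd3e and Cd3g encode the delta, epsilon and gamma chains of the CD3 complex and lie together on chromosome 9 of mm10. Cd3d spans 44981786 to 44987339 on the plus strand (ENSMUSG00000032094), Cd3e 44998740 to 45009627 on the minus strand (ENSMUSG00000032093) and Cd3g 44969572 to 44980431 on the minus strand (ENSMUSG00000002033). At P75 Cd3e gave 6, 5, 0 and 4 counts in mutant replicates 1 to 4 and 0, 0, 4 and 0 in wild types. The groups overlapped, and the mean difference was 0.152 CPM (exact permutation test, two-sided, p = 0.143, n = 4 each). Cd3e shares 135 of its 4080 exonic bases with Gm48719, and whether the counting used strand is not given in the sources used here.

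Cd3d gave 2, 0, 0 and 4 counts in mutants and none in wild types, and Cd3g gave 6, 0, 1 and 0 and none. In each gene 2 mutant libraries were at 0 like the wild types, and each had an exact permutation p = 0.429 (n = 4 each). With 6 mutant counts of Cd3d and 7 of Cd3g, the lower 95% limits of their ratios were 1.03 and 1.26. Summed over the 3 chains, mutants held 14, 5, 1 and 8 counts and wild types 0, 0, 4 and 0. The pooled ratio of 28 to 4 counts was 6.10 (2.14 to 23.95), and mutant replicate 1 held 14 of the 28.

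Cd8a encodes the alpha chain of the CD8 coreceptor, which T cells carry as an alpha-beta pair and some other immune cells as an alpha pair (ENSMUSG00000053977, mm10 chromosome 6, 71373427 to 71379173, plus strand). It gave 2, 16, 8 and 5 counts in mutant replicates 1 to 4 at P75 and none in any wild type library. All 4 mutants lay above all 4 wild types, as did 6.71% of the 33681 genes with a count in this comparison. The mean level was 0.399 ± 0.296 CPM in mutants (SD, n = 4) and 0 in wild types, and the 31 mutant counts were at least 9.01-fold above the wild type floor of 3 counts over the group (lower 95% limit of the ratio 6.90). The exact permutation p was 0.0286, the smallest that 4 against 4 libraries can give (n = 4 each). Without any 1 of the wild type libraries the p of Cd8a was 0.0571, and without any 1 of the mutant libraries it was 0.0286. With a library left out the groups are unequal and fewer splits exist, which limits the values p can take. These 2 values therefore do not tell whether the result depends on a library.

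Cd8b1, the beta chain, which is largely restricted to the T cell lineage, lies next to it (ENSMUSG00000053044, chromosome 6, 71322788 to 71337494, plus strand). It gave 2, 3, 5 and 1 counts in mutants and 1, 0, 0 and 0 in wild types. All 4 mutant libraries and 1 wild type library held a count, and the ranges overlapped. The ratio of 11 to 1 counts was 9.59 (1.39 to 413), and the exact permutation p was 0.0571 (n = 4 each).

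**Figure D2:**
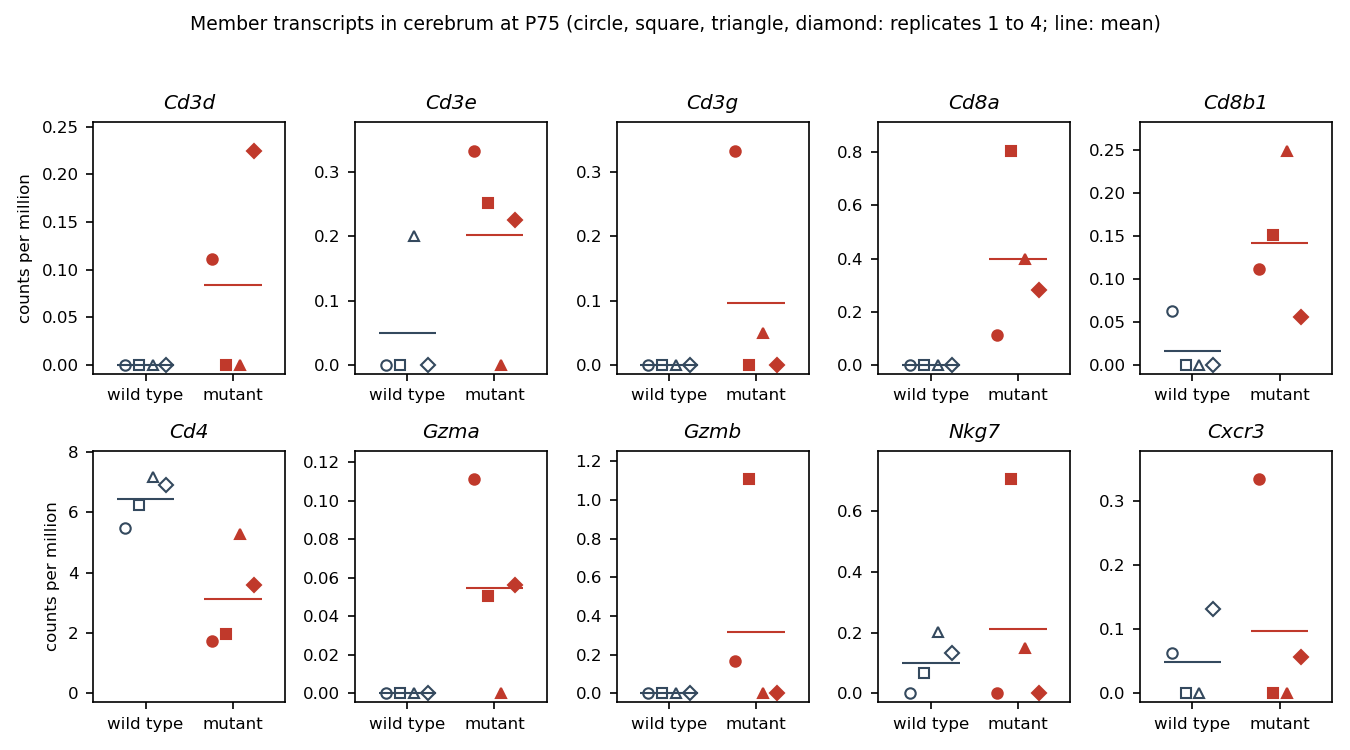
Level of each of the 10 members in cerebrum at P75, in CPM on TMM-scaled totals, for 4 wild type (open) and 4 mutant (filled) libraries; symbols mark replicates 1 to 4, lines mark means, and each panel has its own vertical scale. Cd8a has all mutants above a wild type level of 0, Cd4 has all mutants below the wild types, and Gzmb and Nkg7 rest mostly on mutant replicate 2.

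Cd4 encodes the coreceptor of helper T cells (ENSMUSG00000023274, chromosome 6, 124864692 to 124888221, minus strand). It fell in mutant cerebrum at P75. Wild type replicates 1 to 4 gave 87, 94, 143 and 105 counts, or 5.48, 6.26, 7.18 and 6.90 CPM, and mutants gave 31, 39, 106 and 64, or 1.72, 1.96, 5.28 and 3.60 CPM. All mutants lay below all wild types, as 5.46% of genes with a count did; the closest pair was mutant replicate 3 and wild type replicate 1. The log2 fold change was -1.04 ± 0.29 (SE), with an adjusted p of 0.029 by edgeR's quasi-likelihood test with Benjamini-Hochberg adjustment. Of 17523 genes tested, 14.3% were called at an adjusted p under 0.05, 7.66% higher and 6.62% lower in mutants, so 1 of 1 member tested was called. The call did not hold when mutant replicate 1, mutant replicate 2, wild type replicate 3 or wild type replicate 4 was left out (adjusted p 0.086, 0.073, 0.071 and 0.074, edgeR). The authors' deposited table lists Cd4 with a log2 fold change of -1.04 and an adjusted p of 0.00563, and none of the other 9 members.

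Gzma and Gzmb encode granzymes, serine proteases released from cytotoxic granules (ENSMUSG00000023132, chromosome 13, 113093825 to 113100981; ENSMUSG00000015437, chromosome 14, 56258838 to 56262260; both minus strand). Gzmb gave 3, 22, 0 and 0 counts in mutants at P75 and none in wild types. Mutant replicate 2 held 88.0% of its counts, and 2 mutants held none, as the wild types did. The 25 mutant counts were at least 7.27-fold above the wild type floor (lower 95% limit of the ratio 5.48), but the spread between libraries gave an exact permutation p of 0.429 (n = 4 each). Gzma gave 2, 1, 0 and 1 counts in mutants and none in wild types, and the lower 95% limit of its ratio, 0.576, was below 1 (exact permutation p = 0.143, n = 4 each).

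Nkg7 encodes a membrane protein of cytotoxic granules (ENSMUSG00000004612, chromosome 7, 43437073 to 43438249, plus strand). It gave 0, 14, 3 and 0 counts in mutants and 0, 1, 4 and 2 in wild types. The groups overlapped, 82.4% of the mutant counts came from replicate 2, and the exact permutation p was 0.8 (n = 4 each). Cxcr3 (ENSMUSG00000050232, chromosome X, 101731535 to 101734269, minus strand) gave 6, 0, 0 and 1 counts in mutants and 1, 0, 0 and 2 in wild types. Its ranges overlapped too, with a ratio of 2.04 (0.464 to 12.2) and an exact permutation p of 0.886 (n = 4 each).

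The members were not spread alike over the mutant libraries at P75. Mutant replicate 1 held counts of 8 of the 9 members, with most of the Cd3g and Cxcr3 counts. Mutant replicate 2 held 6 of them, with no Cd3d, Cd3g or Cxcr3 and most of the Gzmb and Nkg7 counts. Mutant replicates 3 and 4 held 4 and 6, and wild type libraries held 1 or 2 each. Per kilobase of gene length, the mean mutant levels at P75 were 0.779 CPM for Cd4, 0.234 for Nkg7, 0.222 for Gzmb, 0.110 for Cd8a, 0.0957 for Cd8b1, 0.0563 for Cxcr3, 0.0541 for Gzma, 0.0496 for Cd3e, 0.0463 for Cd3d and 0.0293 for Cd3g. Neighbours in this order overlapped in their libraries.

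When the filter was dropped and all 33681 genes with a count were fitted, edgeR's quasi-likelihood test with Benjamini-Hochberg adjustment called 3 of the 10 members at P75, against 9.62% of all genes. Cd8a was higher in mutants (log2 fold change 5.85 ± 1.43, adjusted p = 0.000993), and so was Gzmb (5.53 ± 1.52, adjusted p = 0.00481), while Cd4 was lower (-1.04 ± 0.22, adjusted p = 6.72e-05). Fold changes against groups at 0 depend on the prior count. Without mutant replicate 2, Cd8a remained called (adjusted p = 0.0386) and Gzmb did not (adjusted p = 0.438, edgeR). The other 7 members did not pass, with adjusted p from 0.206 for Cd3g to 0.752 for Cxcr3. The spread between libraries weighed less in this fit. In cerebrum at P42 the SE of Cd4 was 0.303 without the filter and 0.802 with it. The number of genes called there was 1312 without the filter and 3 with it. For Gzmb at P75 the exact permutation p was 0.429. Adjusted p-values without the filter are therefore given as descriptions.

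In cerebrum at P42 the 9 members gave 0, 1, 5 and 5 counts in mutant replicates 1 to 4 and 7, 10, 2 and 0 in wild types. The groups overlapped, and the ratio of 11 to 19 counts was 0.595 (0.256 to 1.32), or 0.895 (0.337 to 2.44) without wild type replicate 2. Cd3d, Cd3g, Cd8b1, Gzma and Gzmb had no count in any of the 8 libraries. Cd8a gave 2, 5, 0 and 0 counts in wild types and none in mutants. Cd3e gave 0, 0, 4 and 3 in mutants and 3, 0, 1 and 0 in wild types. Of 9 members outside the edgeR fit, none passed an exact permutation test at 0.05, against 2.25% of genes with 4 to 40 counts. Members without a count could not pass, and Nkg7 gave 2 counts, so that share covers only Cd3e, Cd8a and Cxcr3. The smallest p was 0.371, for Cxcr3 (n = 4 each).

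Cd4 at P42 gave 128, 30, 78 and 38 counts in mutant cerebrum and 125, 328, 17 and 170 in wild types. Wild type libraries spanned 0.898 to 14.5 CPM, a range that contained all mutant libraries, which spanned 1.38 to 7.39 CPM. The log2 fold change was -1.06 ± 0.80 and was not called (adjusted p = 0.55, edgeR), where 0.0165% of 18205 genes were called, and DESeq2 called no member either. Without the filter Cd4 was called (adjusted p = 0.018, edgeR), with 3.83% of 34243 genes, although the range of its wild types contained all mutants. The authors' deposited table gives Cd4 at P42 a log2 fold change of -1.09 and an adjusted p of 0.545.

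In cerebellum at P42 the 9 members gave 2, 19, 8 and 7 counts in mutants and 7, 4, 3 and 14 in wild types, a ratio of 1.03 (0.608 to 1.74). It was 0.648 (0.333 to 1.23) without mutant replicate 2 and 1.46 (0.769 to 2.93) without wild type replicate 4. Mutant replicate 2 held 12 of the 17 mutant counts of Cd3e, for which wild types gave 7, 1, 0 and 7. Gzmb had no count, and Cd8a gave 1, 0, 2 and 2 in mutants and 0, 3, 3 and 2 in wild types. Cd4 gave few counts there, 6, 1, 10 and 7 counts in mutants and 1, 3, 0 and 2 in wild types. The filter kept no member, and none of 10 passed an exact permutation test (smallest p = 0.114, for Cd4, n = 4 each), against 2.35% of genes with 4 to 40 counts. Cd3d, Cd3g, Cd8b1, Gzmb and Cxcr3 had fewer than 4 counts there, below the range of that share. Of the 17616 genes that edgeR tested there, 0.0114% were called.

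The genotype effects at P75 and P42 were compared in cerebrum with an interaction term over 16 libraries, in which each age was set against its own wild types. Age is also time since tamoxifen. Cd4 was the one member in that fit, and the difference of its effect between ages was 0.03 ± 0.88 on the log2 scale and not called (adjusted p = 0.99, edgeR), where 1.36% of 19273 genes were called. Without the filter, 1 of 10 members was called in it, Cd8a, with a difference of 9.65 ± 2.45 (adjusted p = 0.0049, edgeR), against 3.19% of all genes. That value combines counts in mutants only at P75 with counts in wild types only at P42. Because it came from the fit without the filter, its adjusted p is likewise a description.

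The order of Cd4 group means was 7.83 ± 5.61 CPM in wild types at P42 in cerebrum (SD over 4 libraries here and below), 6.45 ± 0.76 in wild types at P75 there, 3.71 ± 2.64 in mutant cerebrum at P42, 3.14 ± 1.65 in mutant cerebrum at P75, 0.329 ± 0.206 in mutant cerebellum and 0.0991 ± 0.0870 in wild type cerebellum. Levels of different ages or tissues were scaled separately. Neighbours in this order overlapped in their libraries except mutant cerebrum at P75 and mutant cerebellum.

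Of genes outside the lists used here, those whose pattern was most like the summed members over 24 libraries, after centring on the 6 group means, were Pde10a (Pearson r = 0.925), Adora2a (0.909), Gpr6 (0.898), Sh3rf2 (0.895) and AC171205.1 (0.886). Each r describes log2(CPM + 0.5) and carries no test. Depth differed between libraries, and any difference in dissection would enter each r. Libraries of an age share a count table. Cd4 gave most of the sum, and against Cd4 alone the leading genes were Gpr6 (0.942), Sh3rf2 (0.923) and Rasd2 (0.916). Pde10a, Adora2a and Gpr6 are known for expression in striatal projection neurons. Adora2a, an adenosine receptor, fell at P75 from 52.1 ± 4.27 to 26.1 ± 8.58 CPM (log2 fold change -0.996 ± 0.174, adjusted p = 0.0018, edgeR), and Gpr6 fell from 14.0 ± 0.334 to 5.99 ± 2.24 CPM (-1.22 ± 0.21, adjusted p = 0.0017). Pde10a went from 279 ± 37.1 to 217 ± 48.5 CPM and was not called (-0.36 ± 0.14, adjusted p = 0.091, edgeR), but was with the replicate block, with no filter or without mutant replicate 3 or 4. In wild type cerebrum at P42, replicate 3 had the lowest level of both Cd4 (0.898 CPM) and Adora2a (3.06 CPM), and replicate 2 the highest of both (14.5 and 83.8 CPM). The part of regional composition in the Cd4 values was not tested.

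**Figure D3:**
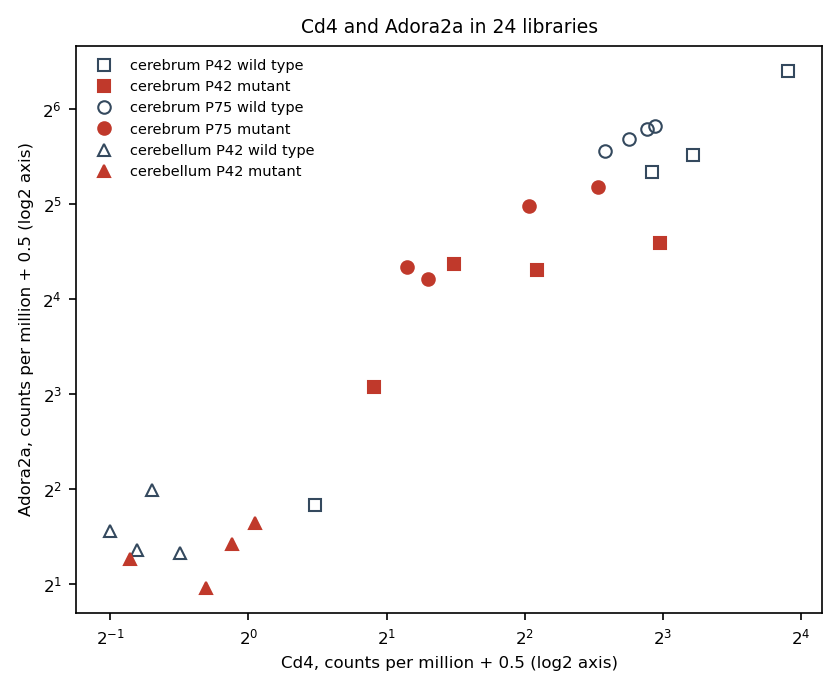
Level of Cd4 (horizontal) against Adora2a (vertical) in the 24 libraries, as CPM + 0.5 on log2 axes, by tissue, age and genotype. Wild type cerebrum at P42 contains both the lowest and the highest cerebrum library for the pair, and the P75 mutants lie below the P75 wild types on both axes.

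Against the 9 members without Cd4, an order added after seeing that Cd4 dominated the sum, the leading genes were Prdx6 (0.812), Cdk1 (0.784), Cd63-ps (0.758), Tyrobp (0.738) and Traf3ip3 (0.733), over the same 24 libraries. Tyrobp, a signalling adaptor of microglia and natural killer cells, was called at P75 with a log2 fold change of 1.34 ± 0.29 (adjusted p = 0.0078, edgeR). In sparse counts such values are weak descriptions.

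No constant region gene of the T cell receptor was called higher in mutants at P75. Trbc2, a beta chain constant gene, fell from 75, 82, 107 and 92 counts in wild types to 27, 46, 53 and 57 in mutants at P75, with no overlap (log2 fold change -1.16 ± 0.23, adjusted p = 0.0041, edgeR). Its wild types held 356 counts together, where the 3 CD3 chains held 4. After centring on group means, its Pearson r over 24 libraries was 0.03 with Cd3d, -0.18 with Cd3e and -0.19 with Cd3g. Which cells gave the Trbc2 counts was not tested. Trac, the alpha chain constant gene, gave 10, 10, 11 and 7 counts in mutants and 14, 15, 18 and 5 in wild types (-0.64 ± 0.41, adjusted p = 0.34). Of the 4 constant genes found in the tables, 2 were kept and 1 was called, lower, with a median of -0.90, against a median of 0.00 over all genes tested. Trbc1, named after its counts were seen, gave 1, 6, 0 and 3 counts in mutants and 0, 0, 1 and 0 in wild types.

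Genes of T cell receptor signalling and costimulation went both ways. Of 30 listed, 13 were kept, 4 rose and 2 fell, with a median of -0.06, where 7.66% of all genes rose and 6.62% fell. Fyb, an adaptor also present in myeloid cells, rose by 1.57 ± 0.28, Trat1, a receptor-associated adaptor, by 1.80 ± 0.44, and Lck, the proximal kinase, by 1.004 ± 0.261. The calls of Trat1 and Lck did not hold without mutant replicate 1 (adjusted p = 0.069 and 0.065, edgeR; 0.093 for Trat1 when the filter was dropped as well), nor that of Lck without wild type replicate 4 (0.062). Bcl11b, a T lineage factor that is also abundant in forebrain neurons, fell by 0.45 ± 0.08 on the log2 scale. The adjusted p-values of these 4 were 0.0021, 0.015, 0.020 and 0.0031 (edgeR). The other 17 genes of the list were outside the fit and gave 465 counts in mutants and 207 in wild types, 15 of them higher in mutants, the direction in which low counts leaned in general. Pdcd1, the inhibitory receptor PD-1, was chosen after its values were seen: it gave 32, 21, 9 and 13 counts in mutants and 0, 2, 2 and 0 in wild types, with no overlap. Cd247, the zeta chain of the receptor complex, gave 10, 3, 4 and 6 in mutants and 3, 0, 6 and 1 in wild types.

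Of 18 further cytotoxic and natural killer genes found in the tables, 3 were kept and 2 of them rose. Gzmm, a further granzyme gene, gave 285, 229, 164 and 115 counts in mutants and 27, 28, 33 and 28 in wild types. Every mutant was above every wild type, with a log2 fold change of 2.57 ± 0.27 (adjusted p = 2.4e-05, edgeR). Ccl5, a chemokine made by cytotoxic T cells and by activated glia, rose by 5.65 ± 0.70 (adjusted p = 0.00011), or by 7.73 without wild type replicate 1. The other 15 genes of the list were outside the fit and gave 193 counts in mutants and 97 in wild types, with 9 of them higher in mutants, 4 lower and 2 without a count. The following 4 were chosen after their values were seen. The natural killer receptor gene Ncr1 had no count in any library at P75, and the pore-forming perforin gene Prf1 gave 0, 3, 5 and 1 counts in mutants and 0, 0, 1 and 0 in wild types. Ifng, the interferon of T and natural killer cells, gave 0, 1, 0 and 2 counts in mutants and 1, 0, 0 and 0 in wild types. Cd244a, a receptor of natural killer and CD8 T cells, gave 14, 14, 11 and 2 in mutants and 0, 1, 0 and 0 in wild types.

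Among 16 genes of lymphocyte homing and residence, 12 were kept, 2 rose and none fell, with a median of 0.37, beside 7.66% of all genes higher and 6.62% lower. The other 4 gave 70 counts in mutants and 14 in wild types, all 4 higher in mutants. Cd44, an adhesion receptor, rose by 1.13 ± 0.27 (adjusted p = 0.012, edgeR). Several chemokines also rose. Of the chemokines for lymphocyte receptors, 7 of 15 gene rows were kept and 6 rose, with a median of 4.42. Of the CXCR3 ligands, Cxcl10 went from 0.492 ± 0.425 to 33.1 ± 16.4 CPM (SD, n = 4 each; log2 fold change 6.03 ± 0.49, or 6.67 without wild type replicate 1), and Cxcl9 gave 152 counts in mutants and 3 in wild types, a ratio of 44.2 (95% interval 14.8 to 217), with all 3 wild type counts in replicate 4. The receptor gene Cxcr3 gave 7 and 3. Ccl12, a ligand of CCR2, rose by 4.01 ± 0.42, and Ccl4, a chemokine made by activated microglia and lymphocytes, gave 115 and 2 counts, a ratio of 50.1 (95% interval 13.6 to 419), with both wild type counts in replicate 4. Without that library the log2 fold change went from 5.26 to 8.19 for Cxcl9 and from 5.34 to 7.78 for Ccl4.

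Of 10 endothelial adhesion genes, 6 were kept, 3 rose and 1 fell. Icam1 and Vcam1, the ligands of lymphocyte integrins, rose by 2.15 ± 0.25 and 0.77 ± 0.10 (adjusted p = 6.8e-05 and 0.00018, edgeR). All 15 MHC class I presentation genes were kept and all 15 rose, with a median of 2.37, Nlrc5, their transactivator, by 3.44 ± 0.28 (adjusted p = 3.9e-06). Of 8 MHC class II genes, all were kept and 2 rose, with a median of 0.39, among them Cd74, the invariant chain, at 0.78 ± 0.24 (adjusted p = 0.041), a call that held in none of the 6 fits without mutant replicate 1 or 2 or without any 1 wild type library (adjusted p = 0.057 to 0.14, edgeR).

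**Figure D4:**
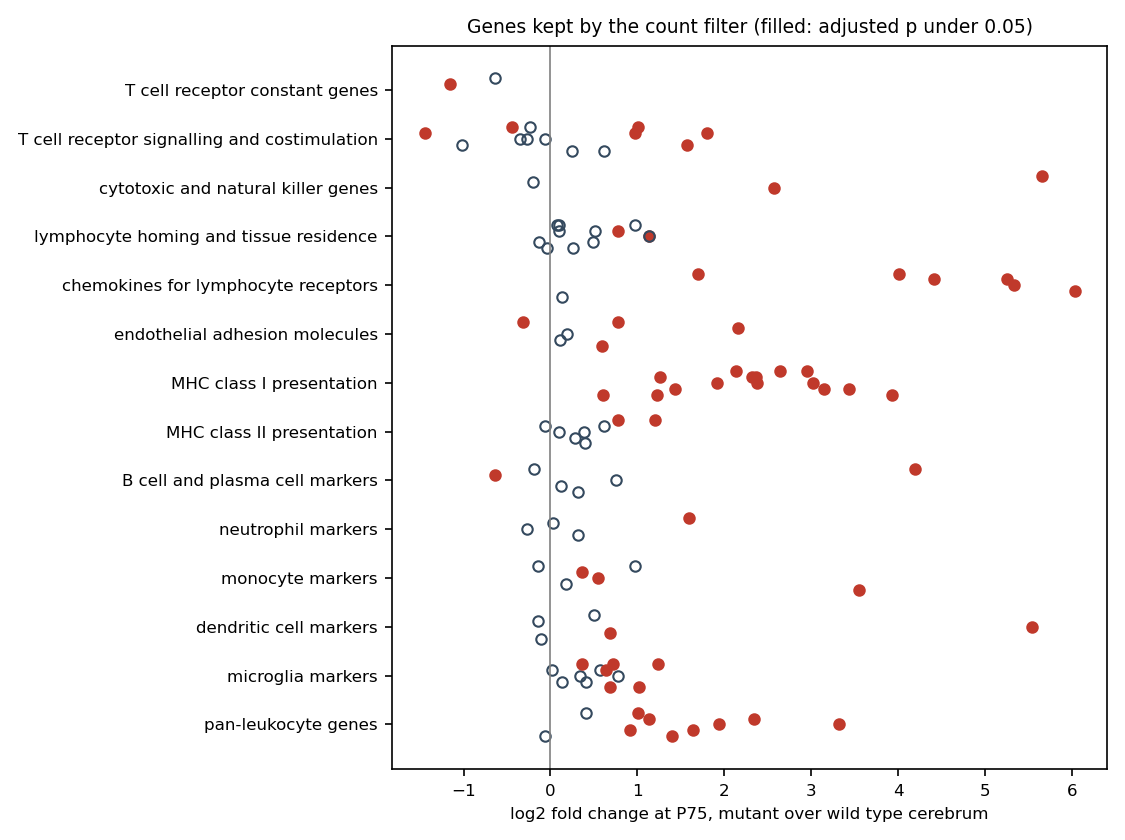
Log2 fold change (mutant over wild type) in cerebrum at P75 of each gene kept by the count filter, by gene list; filled points had an adjusted p under 0.05 by edgeR's quasi-likelihood test. All 15 MHC class I genes and 6 of 7 chemokine genes are filled on the right, while the T cell receptor constant genes lie left of 0 and the signalling genes on both sides.

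Markers of other cells that share these transcripts moved as well. Of the 12 microglia markers, all kept, 6 rose and none fell, and their summed level was 887 to 1375 CPM in mutants and 726 to 857 in wild types at P75. Of 10 pan-leukocyte genes, 8 rose, with sums of 167 to 278 against 142 to 152 CPM, among them Ptprc, which encodes CD45 (1.94 ± 0.29, adjusted p = 0.00052, edgeR), and Cd52 (3.32 ± 0.41, adjusted p = 0.00012). Itgax, an integrin of dendritic cells and activated microglia, rose by 5.55 ± 0.74 (adjusted p = 0.00023), as 1 of 2 called among 10 dendritic cell markers, whose sums were 45.2 to 66.9 against 38.0 to 45.2 CPM. Of 10 monocyte markers, 6 were kept and 3 rose, with sums of 294 to 342 against 219 to 286 CPM. Plac8, a gene of monocytes and of other leukocytes, rose by 3.55 ± 0.48 (adjusted p = 0.00026, edgeR), at 1.657 against 0.1305 CPM. Far more of these sums came from the other called genes, Ly6c1, at 57.15 against 38.97 CPM, and Fn1, at 87.83 against 68.45 CPM. Ccr2 was kept and not called (0.98 ± 0.58, adjusted p = 0.29, edgeR). Of 10 border macrophage markers 8 were kept and none was called, with sums of 46.9 to 55.7 against 39.3 to 44.1 CPM. Siglech, the other called dendritic cell marker (0.69 ± 0.19, adjusted p = 0.028, edgeR), was also on the microglia list. The 5 dendritic cell markers outside the fit gave 64 counts in mutants and 38 in wild types, 4 of them higher in mutants. Xcr1, a defining gene of a subset of conventional dendritic cells, gave 0, 2, 1 and 1 counts in mutants and 0, 0, 0 and 1 in wild types. The part of these cells in the members' counts was not tested.

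Of 15 B cell and plasma cell markers, 6 were kept, 1 rose and 1 fell. Cd79a, a chain of the B cell receptor, rose by 4.20 ± 0.50 (adjusted p = 9.0e-05, edgeR), while the sums were 106 to 131 CPM in mutants and 131 to 139 in wild types. Most of each sum was Xbp1, a gene that many secretory cells express, at 95.0 ± 5.37 and 108 ± 0.927 CPM. The 9 genes outside the fit gave 269 counts in mutants and 100 in wild types, 6 of them higher in mutants. The defining gene Ms4a1 gave 1 count in mutants and 3 in wild types. Of 12 neutrophil markers 4 were kept and 1 rose, with sums of 15.99 to 30.2 against 7.82 to 11.3 CPM. The gene that rose, Csf3r, a cytokine receptor of myeloid cells, held most of the mutant sums, at 18.7 ± 7.65 against 6.15 ± 0.824 CPM (log2 fold change 1.599 ± 0.247, adjusted p = 0.00078, edgeR). Of the kept genes not called, S100a8 gave 77 counts against 83, S100a9 79 against 57 and Ngp 45 against 39. The 8 genes outside the fit gave 102 counts in mutants and 48 in wild types, 7 of them higher in mutants, the direction in which low counts leaned in general. The defining gene Ly6g gave 4 counts, all in mutant replicate 1, against 2. Of the 8 erythroid markers found, 6 were kept, 1 fell and none rose, and their sums overlapped between groups, 98.1 to 293 against 162 to 246 CPM. Of 10 choroid plexus markers 1 rose, with sums of 601 to 794 against 433 to 615 CPM. The part of blood or of these tissues in the counts was not tested.

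The flanking lists at P42 showed few calls. In cerebrum none of the T cell signalling, cytotoxic or homing genes was called, and 1 gene was called over all lists, a marker of thalamus, hypothalamus and midbrain. In cerebellum none was called. Regional markers differed in cerebrum at P42, with sums of 679 to 1145 CPM in mutants and 194 to 368 in wild types, and choroid plexus markers in cerebellum, with 41.6 to 1055 against 1389 to 2442 CPM. Their part in the P42 values of the members was not tested.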

How the data were processed

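Per the labels' protocols, RNA was extracted with Trizol and libraries were made by polyA enrichment. The submitters' processing notes name HISAT2, DESeq2 and mm10; the sources used here give neither the counter nor the annotation release, and gene coordinates equal those of GENCODE M21 for 53462 of 54532 genes. The authors deposited raw read counts per gene, unscaled whole numbers, used here for all tests. Per the file headers, the authors' DESeq2 tables hold the mean signal (baseMean), the log2 fold change, its standard error, the Wald statistic as a score, and p-values with adjusted p-values; they were used for side by side values only. Gene length came from the deposited tables.

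The members and all gene lists were chosen with earlier results of these data known. Each tissue and age was fitted by itself with edgeR 4.0.16 in R 4.3.3 (filterByExpr by genotype, TMM scaling, quasi-likelihood F test, two-sided, sex as covariate at P42, Benjamini-Hochberg over all genes kept, threshold 0.05). The SE given with an edgeR fold change is its absolute log2 value divided by the square root of F, derived from the test. Members outside the fit were compared by exact permutation over libraries. Pooled ratios have exact conditional binomial intervals at 95%. Likeness used log2(CPM + 0.5). Named were all 10 members, of each other list up to 4 genes with the smallest p at P75, of which the text gives some, and the 5 genes most like the summed members; exceptions are marked, and genes outside the fit, Cd247 and the defining markers of other cells included, were chosen after their values were seen. Of the list symbols, Trgc1, Trgc2, Trgc4, Cd244, Hbb-b1 and Hbb-b2 were not found. Simulated counts with known changes were used to test the fit: at P75, 68 of 100 genes changed 2-fold and 100 of 100 changed 4-fold were called, among 17282 genes. Of the unchanged genes, 12 were called. The simulation drew on genes kept by the filter, all with the same dispersion of 0.05, so it does not cover members outside the fit or the real spread between libraries. Alternatives were DESeq2 1.42.0, other scalings and filters, a replicate block, no sex term and leaving out libraries. Promoter sequences are from RefSeq (GRCm38.p6). The labels do not say whether same-numbered mutant and wild type libraries were paired. Some genes of the lists are counted but not reported here by name.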

Additional observations from a re-analysis of the deposited data

Results flagged for a closer look

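The 22 Gzmb counts of mutant replicate 2 at P75, or 1.11 CPM, stood apart from the other 3 mutant libraries by more than Dixon's test allows in a group of 4. This was 1 of 24 such tests on members and their sums in groups with at least 10 counts, and chance alone flags about 1 in 20 groups.

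For 9 of 28 companion genes tested, the genotype effect in cerebrum at P75 differed from that at P42 by edgeR's interaction test. Most of the 28 were named for a small p at P75, a choice that favours such a difference. The test called 1.36% of all genes, a share over unselected genes that is no background for these. The difference, as the log2 fold change at P75 minus that at P42, was 5.72 for Ccl5, 3.72 for Cd52, 1.891 for Csf3r, 1.89 for Fyb, 2.66 for Gzmm, 5.99 for Itgax, 3.42 for Nlrc5, 2.59 for Ptprc and 1.16 for Vcam1. The ages were deposited as separate count tables and each was set against its own wild types. Of these, Ccl5 and Itgax were not kept by the filter at P42 alone.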

How the results depend on the processing

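The unfiltered fit with a library left out, the likeness of the 9 members and the pooled ratios without mutant replicate 2 were added after seeing the data. Members called at P75 were 1 in each fit with the filter and all libraries, 3 without the filter, 0 to 1 with a library left out and 2 to 3 without the filter and with a library left out; without the filter 1 was called at P42 in cerebrum and 1 in the interaction. Genes called at P75 were 2502, with 3084 by DESeq2 and 2860 on library size only (2313 higher and 547 lower, against 1342 and 1160), where the median of all genes moved to 0.11; without a library they were 1356 (without mutant replicate 1) to 2783. In cerebrum at P42 the count of 3 became 233 by DESeq2, 1312 with no filter, 8 with the replicate block, 0 on library size only, with the stricter filter, with no sex term or without mutant replicates 3 and 4, and 0 to 11 without a library. In cerebellum 2 became 41 by DESeq2, 153 with no filter, 1 with the replicate block or no sex term, and 1 to 2 without a library. The interaction's 263 became 670 by DESeq2, 1176 with no filter and 124 to 1169 without a library. The causes were not tested. The replicate block gave 3537 calls at P75; the numbers were not taken as pairing, since the correlations of deviations were 0.026 to 0.141 at P75, where every mutant correlated best with its own number, and it changed no member's call.

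The summed members without Cd4 were 1.61 and 0.214 CPM (mutant and wild type, P75), 0.148 and 0.236 (P42 cerebrum) and 0.470 (cerebellum mutants). The age difference of Cd4 changed sign without 8 of the 16 libraries (-0.57 to -0.01) and ranged from -0.57 to 0.71. The difference of Nkg7 ranged from -0.0499 CPM (without mutant replicate 2) to 0.185, and that of Cxcr3 from -0.0298 CPM (without mutant replicate 1) to 0.0813. Of the other named genes' alternatives, none reversed a direction. Members under 3 counts per library, 0.129 to 0.217 CPM, are at the limit of this depth.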
